A study of Mus musculus with 19 samples.

Results

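The genes described here are 8 secreted regulators of inflammation and tissue growth: the interleukin-1 family genes Il1b, Il1a, Il1rn and Il18, the tumour necrosis factor gene Tnf, the oncostatin M gene Osm, and the growth factor genes Tgfb1 and Vegfa. They were chosen by name, as cytokine, antagonist and growth factor genes with a row in the count table, and all 8 have one among the 50854 genes of the table. All 8 also averaged 1 read or more across the 19 labelled libraries, the limit that left 18652 genes for testing. The libraries are bulk RNA-seq of sorted bone marrow cells, labelled as monocytes, from female REP mice aged 8 to 12 weeks. In these mice the cells that use CCR1, CCR2 or related inflammatory chemokine receptors carry fluorescent reporters. For its monocyte sorts for culture and for single-cell sequencing, the paper gives a gate of CD11b+, Ly6C high, Ly6G- and SiglecF-. Its main text spells out no gate for the bulk libraries. The study set CCR1/2+ve monocytes, which coexpress CCR1 and CCR2, against CCR2+ve monocytes, which express CCR2 only, in resting mice and in inflamed mice, whose implanted osmotic pumps had released IL-3, IL-6, GM-CSF and IFN-α for a week. Whether resting mice carried pumps is not given in the sources used here. There were 4 resting CCR1/2+ve, 4 resting CCR2+ve, 3 inflamed CCR1/2+ve and 4 inflamed CCR2+ve libraries, and 4 more labelled inflamed CCR1. Nothing in the labels ties libraries to separate mice, so that the p-values measure the spread between libraries. The labels name no batch, so that a difference between states cannot be told apart from a difference in preparation. In bulk samples such as these, fewer cells of a type and less RNA per cell cannot be told apart.

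IL-1β and IL-1α signal through the same receptor, and the IL-1 receptor antagonist encoded by Il1rn occupies that receptor without signalling. IL-1β and IL-18 are made as inactive precursors, which caspase-1 cleaves inside inflammasomes, so that the level of their mRNA is only 1 of the steps that set secretion. Monocytes are known as sources of IL-1β, TNF and oncostatin M once they are activated, while TGF-β1 is stored in a latent form outside the cell and VEGF-A promotes the growth of blood vessels.

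The libraries held between 22268658 and 30502009 reads on genes (median 23706580, n = 19). Libraries of the 4 reported groups carried the monocyte markers: 12 of 12 had a mean of at least 10 CPM in each group, and their summed level was 31954 to 57424 CPM per library. CPM are read counts scaled to the size of each library. The 4 libraries labelled inflamed CCR1, whose label names CCR1 only, differed from the other 15 libraries in their markers. Their Ccr2 level was 4.04 to 9.57 CPM, against 474 to 1370 CPM in the other 15 libraries. Their summed monocyte markers reached 7836 to 12474 CPM, with 8 of 12 at a mean of at least 10 CPM. Their mature neutrophil markers (10 of 12 at a mean of at least 10 CPM) summed to 108402 to 158295 CPM, against 1577 to 3930 CPM elsewhere. The early granule genes Mpo, Elane, Prtn3 and Ms4a3 summed to 44341 to 53378 CPM. Of the mature neutrophil list, Ngp and Camp had the largest means (85941 and 19943 CPM). Only Mmp8 went the other way, at a mean of 9.09 CPM against 451 to 1606 CPM in the other groups. Csf3r, at 564 CPM, was close to inflamed CCR1/2+ve and CCR2+ve monocytes (519 and 470 CPM). These 4 are named throughout as the libraries labelled inflamed CCR1, and results on the other groups rest on them in a few steps only. Those are the CPM scaling, the low-count filter, the likeness values given last, the adjustment of ratio tests and the fit of all 19 libraries.

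Between the resting and inflamed states the 8 genes did not move as a block. Il1rn and Il18 were higher in both inflamed populations, Tnf and Tgfb1 were lower in both, and Il1b, Il1a and Osm did not pass the test in either. A gene was called at an adjusted p below 0.05 with at least a 2-fold change, that is, a log2 fold change of at least 1 in size. In inflamed against resting CCR1/2+ve monocytes 4 of 8 genes were called, 2 higher and 2 lower, where 28.5% of all genes tested were called (9.16% higher, 19.4% lower). In inflamed against resting CCR2+ve monocytes 2 of 7 tested were called, both lower, where 28.6% of all genes were called (9.37% higher, 19.2% lower). The median log2 fold change of the genes tested was -0.68 and 0.16 respectively, against -0.25 and -0.10 over all genes. In resting CCR1/2+ve against resting CCR2+ve monocytes 1 of 8 was called, where 4.25% of all genes were (2.34% higher, 1.9% lower), and the median log2 fold change was -0.51 against 0.03 over all genes. That fit did not pair the libraries. With the replicate number as a block 1 of 8 was still called, and 1055 of all genes, against 792 without it. Between the inflamed populations edgeR called 0 of 7, where 0.145% of all genes were called (0.102% higher, 0.0429% lower) and 0.188% passed the adjusted p alone. In that comparison 1 gene, Tgfb1, had an unadjusted p below 0.05, and DESeq2 also called 0.

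**Figure D1:**
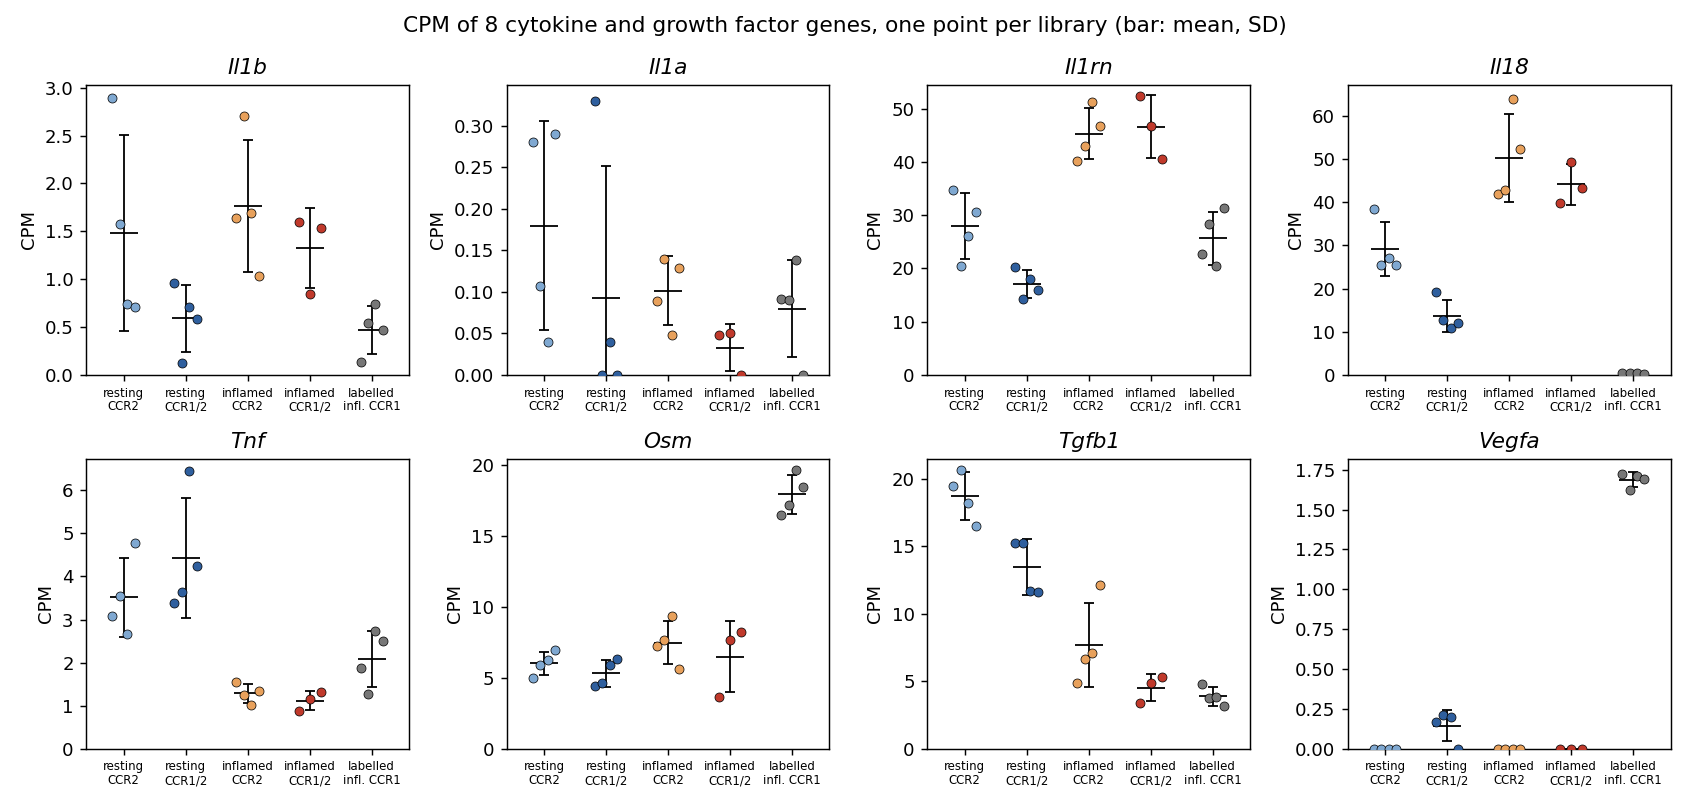
Level of each of the 8 genes in CPM, with 1 point per library, the mean as a horizontal line and the SD as an error bar, on axes that start at 0. Il1rn and Il18 sit higher in both reported inflamed groups than in the resting ones, Tnf and Tgfb1 sit lower, and Vegfa is at 0 in 11 libraries of the resting CCR2+ve group and of both reported inflamed groups while the 4 libraries labelled inflamed CCR1 lie at 1.62 to 1.73 CPM.

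For the pair that was higher and the pair that was lower in inflamed monocytes, the 250 bases before the annotated RefSeq start (GRCm38.p6) are given 5′ to 3′ on the strand of the gene. RefSeq promoter entries were matched for 7 of the 8 genes, all but Osm. Capitals mark matches, on either strand, to 5 short motifs: the TATA box TATAAA, the GC box GGGCGG, the PU.1 core GAGGAA, the gapped STAT motif TTCNNNGAA and the interferon response motif GAAANNGAA. Some matches can share bases with another motif. Of 32851 annotated windows of this length, 12.4% hold the TATA box, 32.7% the GC box, 23.3% the PU.1 core, 7.02% the STAT motif and 7.13% the interferon motif.
Il1rn, chr2:24336610-24336859, + strand, the first of its 3 annotated starts: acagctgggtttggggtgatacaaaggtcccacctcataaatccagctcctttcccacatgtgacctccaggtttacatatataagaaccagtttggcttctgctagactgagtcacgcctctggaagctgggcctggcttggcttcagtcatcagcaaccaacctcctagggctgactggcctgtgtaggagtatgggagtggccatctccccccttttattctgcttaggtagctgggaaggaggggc
Il18, chr9:50554450-50554699, + strand: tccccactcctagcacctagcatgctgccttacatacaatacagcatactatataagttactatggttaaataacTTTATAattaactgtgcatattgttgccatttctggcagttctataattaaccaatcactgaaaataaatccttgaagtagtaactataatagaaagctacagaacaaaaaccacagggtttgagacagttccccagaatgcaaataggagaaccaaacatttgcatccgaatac
Tnf, chr17:35202008-35202257, - strand: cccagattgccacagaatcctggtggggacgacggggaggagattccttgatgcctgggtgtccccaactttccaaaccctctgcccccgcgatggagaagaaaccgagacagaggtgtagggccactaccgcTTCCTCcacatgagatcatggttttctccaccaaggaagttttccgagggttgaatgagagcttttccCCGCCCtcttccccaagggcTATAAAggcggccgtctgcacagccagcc
Tgfb1, chr7:25686752-25687001, + strand: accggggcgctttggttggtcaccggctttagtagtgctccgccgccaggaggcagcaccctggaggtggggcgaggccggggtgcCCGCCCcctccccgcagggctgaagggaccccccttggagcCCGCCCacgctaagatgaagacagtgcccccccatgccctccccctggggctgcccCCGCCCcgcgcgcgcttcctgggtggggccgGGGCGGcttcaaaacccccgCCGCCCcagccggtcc
The pairs were not alike in these letters. The Tnf window holds a TATA box 29 bases before the start, a GC box and a PU.1 core, and the Tgfb1 window holds 5 GC boxes and no TATA box. The Il18 window holds the TATA letters 175 bases before the start and none of the other motifs, and the Il1rn window shown holds none of the 5. The windows differ in base composition too, with a GC content of 35.6% for Il18, 53.2% for Il1rn, 57.6% for Tnf and 75.2% for Tgfb1, against a median of 52.4% over all windows. These matches are descriptions of the windows and say nothing of which factors bound there.

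Il1rn (ENSMUSG00000026981, chr2:24336853-24351494, + strand, GRCm38) encodes the IL-1 receptor antagonist. Its level was 20.3, 14.3, 18.1 and 15.9 CPM in the resting CCR1/2+ve libraries and 34.8, 20.4, 26.1 and 30.6 CPM in the resting CCR2+ve libraries. It was 52.5, 46.8 and 40.6 CPM in the inflamed CCR1/2+ve libraries and 40.2, 43.1, 51.3 and 46.8 CPM in the inflamed CCR2+ve libraries. Every inflamed library of these 2 populations lay above every resting library. In CCR1/2+ve monocytes the gene rose 2.48-fold with inflammation (log2 fold change 1.31 ± 0.14 SE, adjusted p = 1.40e-05, edgeR quasi-likelihood test). In CCR2+ve monocytes it was 1.55-fold higher (log2 0.63 ± 0.15, adjusted p = 0.00334), past the adjusted p and short of the fold cutoff. Of the 7 genes tested 4 passed the adjusted p alone in CCR2+ve monocytes, where 47.8% of all genes did, and 4 of 8 in CCR1/2+ve monocytes, where 46% of all genes did.

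At rest Il1rn was 1.55-fold lower in CCR1/2+ve than in CCR2+ve monocytes (log2 -0.63 ± 0.16, adjusted p = 0.0167), again past the adjusted p only, as were 16.9% of all genes. The resting groups did not overlap, with 20.3 CPM as the highest CCR1/2+ve and 20.4 CPM as the lowest CCR2+ve library. The adjusted p was 0.0632 without resting CCR2+ve replicate 1 and 0.0505 without resting CCR1/2+ve replicate 2. Those fits did not pair the libraries. Over 16 alternative fits by edgeR or DESeq2, some with the replicate number as a block, the adjusted p ran from 0.00016 to 0.0632. Under inflammation the populations stood at 46.6 ± 5.93 (SD, n = 3) and 45.3 ± 4.80 (n = 4) CPM, and no difference was detected (log2 0.02 ± 0.14, adjusted p = 0.993).

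Il18 (ENSMUSG00000039217, chr9:50554827-50581840, + strand) encodes IL-18, an inducer of interferon-γ in lymphocytes. It stood at 19.1, 12.8, 10.8 and 12.1 CPM in resting CCR1/2+ve libraries and at 38.3, 25.5, 27.1 and 25.4 CPM in resting CCR2+ve libraries, of which replicate 1 lay apart from the other 3. In inflamed CCR1/2+ve libraries it stood at 39.8, 49.3 and 43.2 CPM, and in inflamed CCR2+ve libraries at 41.9, 42.9, 63.9 and 52.2 CPM. The 4 groups formed 3 steps that did not overlap: resting CCR1/2+ve lowest, then resting CCR2+ve, then both inflamed populations together.

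Il18 was the 1 gene of the 8 called between the resting populations, 2.01-fold lower in CCR1/2+ve monocytes (log2 -1.01 ± 0.19, adjusted p = 0.00337). The value lay at the cutoff: without resting CCR2+ve replicate 1 it was -0.82, and without resting CCR1/2+ve replicate 2, 3 or 4 it was -0.99, -0.90 and -0.94, each with an adjusted p under 0.05 but short of a 2-fold change. Over 16 alternative fits by edgeR or DESeq2, some with the replicate number as a block, the adjusted p ran from 9.5e-07 to 0.0158. With inflammation Il18 rose 2.93-fold in CCR1/2+ve monocytes (log2 1.55 ± 0.20, adjusted p = 6.14e-05) and was 1.65-fold higher in CCR2+ve monocytes (log2 0.72 ± 0.17, adjusted p = 0.00279), short of the fold cutoff. With an offset for the GC content of each gene, the second value was 1.00 (adjusted p = 0.000115) and was called.

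**Figure D2:**
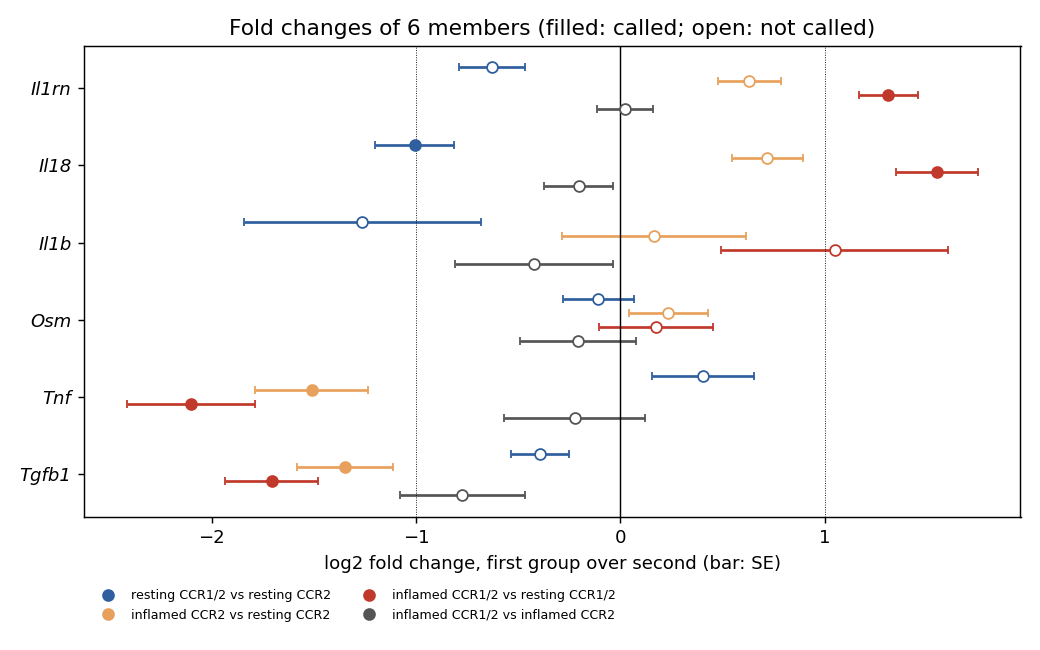
Log2 fold change (x axis, with the SE as a bar) of 6 of the genes in 4 comparisons, with filled points for called changes and open points for the rest, and dotted lines at the fold cutoff. Il1rn and Il18 lie to the right of 0 in both inflamed against resting comparisons and to the left in the resting comparison, Tnf and Tgfb1 lie beyond -1 in both inflamed against resting comparisons, and no point of the inflamed CCR1/2+ve against inflamed CCR2+ve comparison is filled.

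Whether the genes differed between the states by different amounts in the 2 populations was tested as an interaction. The difference between the log2 changes was 0.64 ± 0.22 for Il1rn (adjusted p = 0.219, edgeR quasi-likelihood test) and 0.79 ± 0.28 for Il18 (adjusted p = 0.228), the larger change being that of CCR1/2+ve monocytes in both. edgeR passed 0 of the 7 genes tested at an adjusted p below 0.05, where 0.397% of all genes passed. Those 2 had an unadjusted p below 0.05, and DESeq2 also passed 0. For Tnf, Tgfb1, Il1b, Osm and Il1a the adjusted p was between 0.528 and 0.939. Vegfa was at 0 in 3 of the 4 groups and was left out.

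Il1b (ENSMUSG00000027398, chr2:129364570-129371139, - strand) encodes IL-1β and was near the lower end of what these libraries measure. It was counted 29, 4, 18 and 19 times in resting CCR1/2+ve libraries (0.955, 0.122, 0.705 and 0.586 CPM) and 72, 44, 19 and 17 times in resting CCR2+ve libraries (2.89, 1.58, 0.742 and 0.705 CPM). The inflamed CCR1/2+ve libraries held 33, 17 and 35 reads (1.60, 0.849 and 1.54 CPM) and the inflamed CCR2+ve libraries 37, 58, 35 and 24 (1.64, 2.7, 1.69 and 1.03 CPM). All 4 groups overlapped with their neighbours in order of mean level. The log2 difference of resting CCR1/2+ve from resting CCR2+ve monocytes was -1.26 ± 0.58 (adjusted p = 0.169), the change with inflammation was 1.05 ± 0.56 in CCR1/2+ve (adjusted p = 0.149) and 0.16 ± 0.45 in CCR2+ve monocytes (adjusted p = 0.796), and none passed. With errors of this size a 2-fold change in Il1b was not detectable in these comparisons. Of its exonic bases, 1.31% overlap the antisense gene Il1bos, and since the counting strand is not stated reads there cannot be assigned to either.

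Il1a (ENSMUSG00000027399, chr2:129299610-129309972, - strand), which encodes IL-1α, was scarcely counted at all. It had 10, 0, 1 and 0 reads in resting CCR1/2+ve libraries, 7, 3, 1 and 7 in resting CCR2+ve libraries, 1, 1 and 0 in inflamed CCR1/2+ve and 2, 3, 1 and 3 in inflamed CCR2+ve libraries. The highest level in any library was 0.329 CPM. No comparison passed (adjusted p between 0.421 and 0.812), and 11.2% of its exonic bases overlap the antisense gene Gm14023. At this depth no change in Il1a could be seen.

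Since the antagonist and the agonist compete for 1 receptor, the log2 ratio of Il1rn to Il1b (0.5 CPM added to each) was taken within each library. It was 3.84, 4.57, 3.95 and 3.92 in resting CCR1/2+ve libraries and 3.38, 3.33, 4.42 and 4.69 in resting CCR2+ve libraries. It was 4.66, 5.13 and 4.34 in inflamed CCR1/2+ve libraries and 4.25, 3.77, 4.56 and 4.95 in inflamed CCR2+ve libraries. Antagonist mRNA exceeded IL-1β mRNA in all of them. Per length, Il1rn stood at 3.10 RPKM (CPM per kilobase of exon) in resting CCR1/2+ve and 8.43 RPKM in inflamed CCR1/2+ve monocytes, against 0.310 and 0.697 RPKM for Il1b. The mean log2 ratio was 4.07 ± 0.34 (SD, n = 4) and 3.95 ± 0.70 (n = 4) at rest, and 4.71 ± 0.40 (n = 3) and 4.38 ± 0.50 (n = 4) under inflammation, for CCR1/2+ve and CCR2+ve monocytes in turn. The groups overlapped in each comparison, and of 6 exact two-sided permutation tests none passed (adjusted p of 0.6 or 0.857). An exact permutation test of 3 against 4 libraries cannot go below p = 0.0571, and a test of 4 against 4 cannot go below 0.0286.

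**Figure D3:**
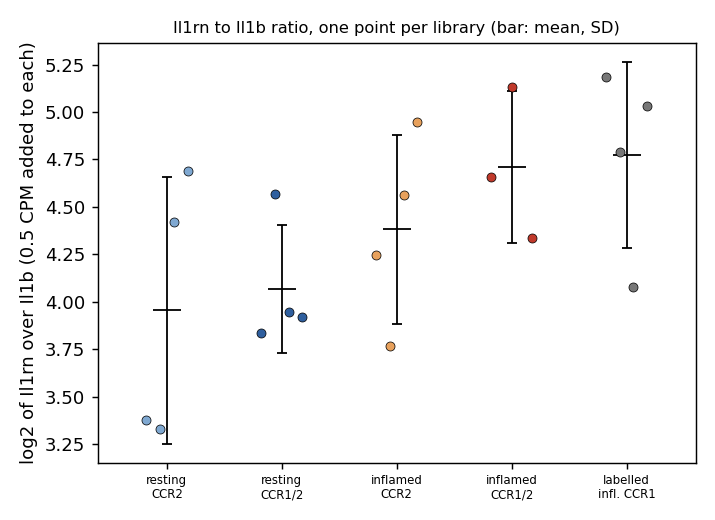
Log2 ratio of Il1rn to Il1b in each library (y axis), with 1 point per library, the mean as a line and the SD as a bar. All points lie between 3.33 and 5.18, and each group overlaps the others it was compared with.

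Around these ligands, the machinery of IL-1 and IL-18 was read from 3 lists, whose counts stand against the 28.5% and 28.6% of all genes called with inflammation in CCR1/2+ve and CCR2+ve monocytes, as do those of the 4 further lists. Of 9 genes of IL-1 and IL-18 processing, 1 was called with inflammation in CCR1/2+ve monocytes and 2 in CCR2+ve monocytes. Nlrp3, the sensor of the best known inflammasome, rose in both, from 21.4 ± 1.05 to 58.9 ± 2.31 CPM in CCR1/2+ve monocytes (log2 1.33 ± 0.10, adjusted p = 7.56e-07) and from 26.5 ± 2.25 to 58.7 ± 6.12 CPM in CCR2+ve monocytes (log2 1.08 ± 0.11, adjusted p = 1.54e-06). Capn2, a calpain subunit, fell in CCR2+ve monocytes from 293 to 127 CPM, and in CCR1/2+ve monocytes it was at 203 and 129 CPM, short of the fold cutoff (log2 -0.77 ± 0.13, adjusted p = 0.000364). The median log2 change of this list was 0.30 in CCR1/2+ve and 0.09 in CCR2+ve monocytes. In CCR1/2+ve monocytes Il18 and Nlrp3 were both called higher, and in CCR2+ve monocytes Nlrp3 was called while Il18 was short of the fold cutoff. Casp1, the caspase itself, chosen here for its role after its values were seen, stood at 145 and 210 CPM in resting and inflamed CCR1/2+ve and at 174 and 175 CPM in resting and inflamed CCR2+ve monocytes and was not called.

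Of 11 tested ligands, receptors and binding proteins of the IL-1 family, 6 were called higher and 0 lower with inflammation in CCR1/2+ve monocytes, and 4 higher and 0 lower in CCR2+ve monocytes. The median log2 change of the list was 1.93 and 1.19. Il1f9, which encodes IL-36γ, rose from 4.24 to 36.5 CPM in CCR1/2+ve (log2 2.96 ± 0.24, adjusted p = 1.89e-06) and from 0.972 to 10.9 CPM in CCR2+ve monocytes (log2 3.40 ± 0.31, adjusted p = 2.89e-07). Its receptor gene Il1rl2 rose from 14.4 to 60.4 CPM and from 8.24 to 49.0 CPM. Il18rap, which encodes the signalling partner of the IL-18 receptor, rose from 5.07 to 46.2 CPM and from 2.77 to 24.3 CPM. At rest, Il1f9 was higher in CCR1/2+ve than in CCR2+ve monocytes (log2 2.19 ± 0.28, adjusted p = 0.000275), the direction opposite to that of Il18 and Il1rn, and Il1rl1, the IL-33 receptor gene, had 0 reads in resting CCR1/2+ve libraries and at most 12 in a resting CCR2+ve library.

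Of 10 genes of IL-1 receptor signalling, 2 were called higher and 2 lower with inflammation in CCR1/2+ve monocytes, and 2 higher and 3 lower in CCR2+ve monocytes. The adaptor gene Myd88 rose from 122 to 419 CPM in CCR1/2+ve and from 179 to 448 CPM in CCR2+ve monocytes, and Tab1, which encodes a partner of the kinase TAK1, rose from 22 to 82.9 and from 30.6 to 81.1 CPM. Irak3, which encodes a brake on the pathway, fell from 87.6 to 14.5 CPM (log2 -2.72 ± 0.16, adjusted p = 8.34e-08) and from 112 to 15.7 CPM (log2 -2.89 ± 0.17, adjusted p = 1.86e-09). The ubiquitin ligase gene Traf6 also fell in both, and Irak1 in CCR2+ve monocytes, its change in CCR1/2+ve monocytes being short of the fold cutoff (log2 -0.73 ± 0.12, adjusted p = 0.000481). Between the inflamed populations 0 genes of the 3 lists were called by edgeR, where 0.145% of all genes were. The paper marks Il1f9 as higher in CCR1/2+ve monocytes in both states. Here edgeR did not call it between the inflamed populations, though their libraries did not overlap. The paper used DESeq2, which in this comparison called 107 of all genes here, against 27 by edgeR. Il1f9 ran from 26.4 to 52.0 CPM in inflamed CCR1/2+ve and from 6.45 to 15.3 CPM in inflamed CCR2+ve libraries.

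**Figure D4:**
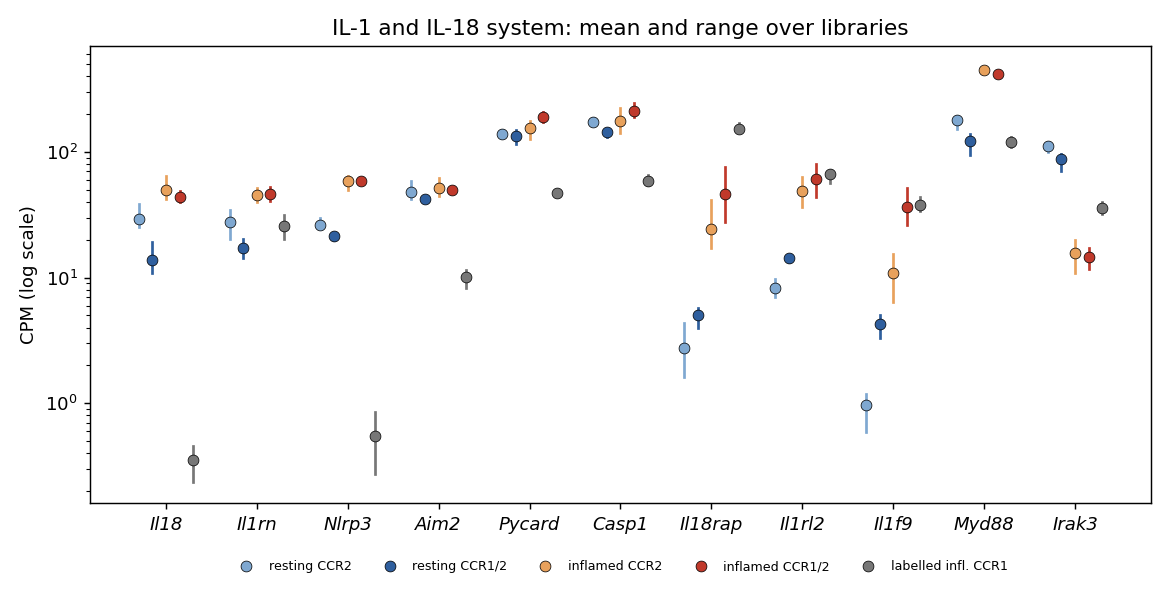
Level in CPM on a log scale (y axis) of Il18, Il1rn and 9 genes of the IL-1 and IL-18 lists, with the mean as a point and the range over the libraries of the group as a line. The points of both reported inflamed groups lie above the resting ones for every gene but Irak3, where they lie below. For Aim2, Pycard and Casp1 the ranges of resting and inflamed CCR2+ve monocytes overlap. The libraries labelled inflamed CCR1 are lowest for Il18 (0.355 CPM), Nlrp3 (0.55 CPM), Aim2, Pycard, Casp1 and, by little, Myd88 (119 against 122 CPM in resting CCR1/2+ve monocytes).

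Tnf (ENSMUSG00000024401, chr17:35199381-35202007, - strand) encodes TNF, an early and rapidly inducible product of activated monocytes. It stood at 3.39, 3.63, 6.46 and 4.25 CPM in resting CCR1/2+ve libraries and at 3.09, 3.55, 2.66 and 4.77 CPM in resting CCR2+ve libraries. It stood at 0.872, 1.15 and 1.32 CPM in inflamed CCR1/2+ve libraries and at 1.55, 1.26, 1.02 and 1.33 CPM in inflamed CCR2+ve libraries. Every inflamed library of these populations was below every resting library. Tnf fell 4.29-fold with inflammation in CCR1/2+ve (log2 -2.10 ± 0.31, adjusted p = 0.000177) and 2.85-fold in CCR2+ve monocytes (log2 -1.51 ± 0.28, adjusted p = 0.000323). At rest the populations overlapped (log2 0.40 ± 0.25, adjusted p = 0.318), as they did under inflammation (log2 -0.22 ± 0.35, adjusted p = 0.892).

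Of 12 tested genes of the TNF pathway, 2 rose and 4 fell with inflammation in CCR1/2+ve monocytes, and 1 rose and 4 fell in CCR2+ve monocytes. Ltb, which encodes the related ligand lymphotoxin-β, fell like Tnf, from 3.03 to 0.174 CPM and from 4.53 to 0.10 CPM. The receptor adaptor gene Tradd fell from 59.5 to 5.27 CPM in CCR1/2+ve (log2 -3.61 ± 0.20, adjusted p = 6.06e-08) and from 59.8 to 6.97 CPM in CCR2+ve monocytes (log2 -3.17 ± 0.13, adjusted p = 5.17e-11), and the kinase gene Ripk1 from 75.2 to 28.3 and from 102 to 30.8 CPM. In the other direction, Adam17, which encodes the protease that sheds TNF from the cell surface, rose in CCR1/2+ve monocytes from 110 to 304 CPM, and in CCR2+ve monocytes it was at 158 CPM at rest and 318 CPM under inflammation, without overlap and just short of the fold cutoff (log2 0.94 ± 0.12, adjusted p = 1.42e-05). Rhbdf2, which encodes a partner of that protease, rose in both, from 15.8 to 38.6 and from 18.7 to 53.9 CPM.

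Osm (ENSMUSG00000058755, chr11:4236420-4241026, + strand) encodes oncostatin M, a cytokine of the gp130 family. It stood at 4.41, 4.64, 5.91 and 6.32 CPM in resting CCR1/2+ve libraries and at 5.02, 5.88, 6.29 and 6.97 CPM in resting CCR2+ve libraries. It stood at 3.63, 7.64 and 8.21 CPM in inflamed CCR1/2+ve libraries and at 7.22, 7.68, 9.34 and 5.63 CPM in inflamed CCR2+ve libraries. The 4 groups overlapped, and no comparison among them passed. The log2 difference was -0.11 ± 0.17 between the resting populations (adjusted p = 0.743), 0.17 ± 0.28 with inflammation in CCR1/2+ve (adjusted p = 0.650) and 0.23 ± 0.19 in CCR2+ve monocytes (adjusted p = 0.342).

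Of the OSM and gp130 family list, 10 genes were tested in CCR1/2+ve monocytes, where 2 were called higher and 1 lower with inflammation. In CCR2+ve monocytes 9 were tested, of which 1 was called higher and 3 lower. The receptor genes themselves were scarcely counted in the reported groups. Il6st, the gp130 gene, had 2 to 14 reads per group, and Osmr, the oncostatin M receptor gene, had 0. Socs3, a feedback inhibitor of gp130 signalling, rose from 0.951 to 8.46 CPM (log2 3.0 ± 0.52, adjusted p = 0.000888) and from 2.7 to 13.4 CPM (log2 2.23 ± 0.34, adjusted p = 7.26e-05). Il6ra, which encodes the IL-6 receptor, fell from 310 to 96.2 CPM and from 436 to 115 CPM, and Jak1 and Stat3, which act below gp130, fell in CCR2+ve monocytes (log2 -1.53 and -1.31). In CCR1/2+ve monocytes their log2 changes were -0.97 and -0.65, past the adjusted p only (7.70e-06 and 0.00126). Lifr, which encodes a receptor chain that can pair with gp130, was lower in resting CCR1/2+ve than in resting CCR2+ve monocytes (39.4 against 90.1 CPM, log2 -1.12 ± 0.16, adjusted p = 0.000482) and rose with inflammation in CCR1/2+ve monocytes to 144 CPM. In inflamed CCR2+ve monocytes it was at 142 CPM, a change short of the fold cutoff (log2 0.59 ± 0.22, adjusted p = 0.0402).

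Tgfb1 (ENSMUSG00000002603, chr7:25687002-25705077, + strand) encodes TGF-β1. It stood at 15.3, 15.2, 11.7 and 11.6 CPM in resting CCR1/2+ve libraries and at 19.5, 20.6, 18.2 and 16.5 CPM in resting CCR2+ve libraries. It stood at 3.39, 4.90 and 5.27 CPM in inflamed CCR1/2+ve libraries and at 4.83, 6.61, 7.11 and 12.1 CPM in inflamed CCR2+ve libraries. The last inflamed CCR2+ve library lay above the lowest resting CCR1/2+ve library, but within each population the states did not overlap. Tgfb1 fell 3.26-fold with inflammation in CCR1/2+ve (log2 -1.71 ± 0.23, adjusted p = 7.30e-05) and 2.55-fold in CCR2+ve monocytes (log2 -1.35 ± 0.23, adjusted p = 0.000207). The resting CCR1/2+ve libraries were all lower than the resting CCR2+ve ones (log2 -0.39 ± 0.14, adjusted p = 0.0760). With the replicate number as a block the adjusted p was 0.0103, with a log2 difference of -0.40, short of the fold cutoff in either fit. The inflamed populations overlapped (log2 -0.77 ± 0.31, adjusted p = 0.458).

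Of 17 tested genes of the TGF-β pathway, 0 rose and 3 fell with inflammation in CCR1/2+ve monocytes, and 0 rose and 6 fell in CCR2+ve monocytes. Of all genes tested 19.4% and 19.2% were called lower in these comparisons, so that the share of the list called lower in CCR1/2+ve monocytes was near that of all genes. Eng, which encodes the coreceptor endoglin, fell in both, from 7.65 to 1.64 CPM and from 14.2 to 3.95 CPM. Itgav, which encodes an integrin chain that activates latent TGF-β, fell in CCR2+ve monocytes from 37.6 to 16.5 CPM, and in CCR1/2+ve monocytes it was at 26.0 and 16.4 CPM, short of the fold cutoff (log2 -0.79 ± 0.18, adjusted p = 0.00338). Tgfbr3, the betaglycan gene, fell in both, from 1.17 to 0.0146 CPM in CCR1/2+ve and from 2.42 to 0.211 CPM in CCR2+ve monocytes. Tgfbr2, the signalling receptor gene, was the list's 1 call between the resting populations, 11.2 CPM in CCR1/2+ve against 37.1 CPM in CCR2+ve monocytes (log2 -1.66 ± 0.19, adjusted p = 0.000155). The list's median log2 change with inflammation was -0.54 in CCR1/2+ve and -0.88 in CCR2+ve monocytes, against -0.25 and -0.10 over all genes.

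Vegfa (ENSMUSG00000023951, chr17:46016993-46032369, - strand) encodes VEGF-A. It was counted 5, 7, 5 and 0 times in the resting CCR1/2+ve libraries and 0 times in each of the 4 resting CCR2+ve, 3 inflamed CCR1/2+ve and 4 inflamed CCR2+ve libraries. Its mean in resting CCR1/2+ve monocytes was 4.90 times a floor of 3 reads over the resting CCR2+ve group (edgeR adjusted p = 0.0609). It was 3.03 times the same floor over the inflamed CCR1/2+ve group (edgeR adjusted p = 0.0540). These multiples take no account of the spread between libraries. Neither difference passed, and both rest on 3 libraries of 4. Without resting CCR1/2+ve replicate 4, the library at 0, both were called (adjusted p = 0.0266 and 0.0181). The paper's list of neutrophil genes of CCR1/2+ve monocytes holds Vegfa, without the mark for genes upregulated in both states. Its test was DESeq2, whereas the main test here, edgeR, did not call Vegfa at rest.

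Of 14 tested genes of the VEGF pathway, 3 rose and 5 fell with inflammation in CCR1/2+ve monocytes, and 2 rose and 5 fell in CCR2+ve monocytes. Pgf, which encodes the related placental growth factor, rose from 0.161 to 1.89 CPM and from 0.126 to 4.20 CPM. Epas1, which encodes HIF-2α, rose from 0.238 to 1.26 and from 0.576 to 3.0 CPM, while Vhl, whose product marks HIF proteins for degradation, fell from 69.6 to 12.3 and from 78.6 to 16.9 CPM. Hif1a itself fell in CCR2+ve monocytes from 131 to 55.7 CPM, and in CCR1/2+ve monocytes it was at 90.6 and 53.4 CPM, short of the fold cutoff (log2 -0.89 ± 0.13, adjusted p = 0.000191). The receptor gene Flt1 was lower in resting CCR1/2+ve than in resting CCR2+ve monocytes (7.71 against 20.6 CPM, log2 -1.34 ± 0.15, adjusted p = 0.000133) and fell with inflammation in both, to 2.05 CPM in CCR1/2+ve (log2 -2.04 ± 0.24, adjusted p = 2.68e-05) and to 4.08 CPM in CCR2+ve monocytes (log2 -2.40 ± 0.27, adjusted p = 2.74e-06).

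Markers of other cells moved between the groups along with these genes. The dendritic cell markers (6 genes) summed to 34.1 to 116 CPM in resting CCR1/2+ve against 217 to 592 CPM in resting CCR2+ve libraries, with 2 and 3 genes at a mean of at least 10 CPM, and the early granule genes (4 of 4 at that level in both) to 3029 to 6474 against 402 to 1584 CPM. The erythroid markers (6 genes) summed to 49.9 to 243 CPM in the resting libraries and to at most 3.26 CPM in the inflamed ones, where none had a mean of 10 CPM. The mast cell and basophil markers (4 genes) summed to 0 to 19.3 CPM at rest and to 104 to 236 CPM in the inflamed CCR1/2+ve and CCR2+ve libraries. The 12 monocyte markers summed to 31954 to 53127 CPM at rest and to 46742 to 57424 CPM in those inflamed libraries, with members on both sides. The mean level of Spi1, which encodes the myeloid factor PU.1, went from 564 to 33.9 CPM in CCR1/2+ve and from 735 to 38.1 CPM in CCR2+ve monocytes. Irf8 went from a mean of 513 to 79.8 and from 485 to 87.3 CPM. The mean level of Csf1r went from 407 to 1080 and from 837 to 1504 CPM, and that of Fcgr1 from 58.1 to 390.2 and from 136 to 427 CPM. The part of these differences in the results was not tested.

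The libraries labelled inflamed CCR1 differed from both inflamed populations in 4 of the 8 genes, 2 higher and 2 lower, where 31.3% of all genes were called against inflamed CCR2+ve (14.4% higher, 16.8% lower) and 27.7% against inflamed CCR1/2+ve monocytes (13.2% higher, 14.6% lower). The 2 comparisons share the same 4 libraries, so that they are not separate evidence. Il18 was almost absent, with 10, 8, 8 and 5 reads (0.454, 0.361, 0.370 and 0.235 CPM), 138-fold lower than in inflamed CCR2+ve (log2 -7.11 ± 0.24, adjusted p = 2.51e-13) and 122-fold lower than in inflamed CCR1/2+ve monocytes (log2 -6.93 ± 0.21, adjusted p = 1.65e-11). Il1b had 3, 12, 16 and 10 reads (0.136, 0.542, 0.739 and 0.471 CPM) and was 3.69-fold lower than in inflamed CCR2+ve monocytes (log2 -1.88 ± 0.45, adjusted p = 0.00221). Against inflamed CCR1/2+ve monocytes it was 2.80-fold lower (log2 -1.49 ± 0.48, adjusted p = 0.0230), a call lost without inflamed CCR1/2+ve replicate 2 (adjusted p = 0.0589) or 4 (0.0767) or without replicate 1 of those labelled inflamed CCR1 (0.0541).

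Osm stood at 16.5, 17.2, 19.7 and 18.4 CPM in the libraries labelled inflamed CCR1, above each of the other 15 libraries. It was 2.42-fold higher than in inflamed CCR2+ve (log2 1.27 ± 0.17, adjusted p = 8.05e-06) and 2.75-fold higher than in inflamed CCR1/2+ve monocytes (log2 1.46 ± 0.25, adjusted p = 0.000365). Vegfa was counted 38, 36, 37 and 36 times (1.62 to 1.73 CPM), at least 49.5-fold and at least 35.7-fold higher than in the CCR2+ve and CCR1/2+ve monocytes of inflamed mice, which were at 0 (adjusted p = 5.17e-07 and 4.72e-06). By the adjusted p alone 6 of 8 passed against inflamed CCR2+ve monocytes, as did 48.1% of all genes, and 5 of 8 against inflamed CCR1/2+ve monocytes, as did 43.2%. Il1rn, at 22.6, 28.3, 20.4 and 31.3 CPM, was lower than in either (log2 -0.81 ± 0.15 and -0.86 ± 0.16, adjusted p = 0.000230 and 0.000539), short of the fold cutoff. Tgfb1, at 4.82, 3.75, 3.79 and 3.15 CPM, was lower than in inflamed CCR2+ve monocytes only by the adjusted p (log2 -0.98 ± 0.27, adjusted p = 0.00612). It was past the fold cutoff without replicate 1 of those labelled inflamed CCR1 (log2 -1.11) and without inflamed CCR2+ve replicate 1, 2 or 3 (log2 -1.15, -1.05 and -1.01). Tnf, at 1.86, 1.26, 2.73 and 2.49 CPM, passed in neither as reported (adjusted p = 0.0839 and 0.0542). Against inflamed CCR1/2+ve monocytes its adjusted p was between 0.0287 and 0.0471 by DESeq2, with no filter, with filterByExpr, in the fit of all 19 libraries and with GC offsets, each short of the fold cutoff (log2 0.90 to 0.95). Without replicate 2 of those labelled inflamed CCR1 its adjusted p was 0.0356 against inflamed CCR2+ve (log2 0.88) and 0.0243 against inflamed CCR1/2+ve monocytes (log2 1.07). Il1a had 2, 2, 3 and 0 reads.

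Around Il18 in these libraries, 5 of 9 processing genes were called lower than in inflamed CCR2+ve and 5 of 9 than in inflamed CCR1/2+ve monocytes, where 16.8% and 14.6% of all genes were. The calpain gene Capn1 was called higher than in inflamed CCR1/2+ve monocytes (11.4 against 4.82 CPM, adjusted p = 0.000332), and against inflamed CCR2+ve monocytes, at 8.39 CPM, it did not pass (adjusted p = 0.111). Nlrp3 was at 0.55 ± 0.27 CPM, Pycard, the inflammasome adaptor gene, at 47.5 CPM against 154 and 188 CPM, and Casp1 at 58.3 CPM against 210 CPM in inflamed CCR1/2+ve monocytes. The receptor side went the other way. Il18r1, the ligand-binding chain of the IL-18 receptor, stood at 6.82 ± 1.72 CPM against 0.301 ± 0.201 CPM in inflamed CCR2+ve (log2 4.50 ± 0.38, adjusted p = 3.23e-08), and Il18rap at 153 CPM against 24.3 and 46.2 CPM. Beside Vegfa, Egln3, which encodes a HIF prolyl hydroxylase, stood at 9.23 CPM against 0.568 and 0.524 CPM, and Flt1 at 15.4 CPM against 4.08 and 2.05 CPM. Beside Osm, Socs3 stood at 0.093 CPM and Lifr at 0.813 CPM, far below both inflamed populations. The same libraries hold the neutrophil and early granule markers given at the start, whose part in these differences was not tested.

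For the 4 genes averaging 5 CPM or more, the 2 genes of most similar pattern were named by Pearson's r of log2 CPM over the 19 libraries, among 7683 genes averaging 10 CPM or more. These values describe libraries that share their groups and depth and carry no test. Il1rn was nearest to Lgals9 (r = 0.955) and Pctp (0.952), and over the 15 libraries without those labelled inflamed CCR1 the values were 0.968 and 0.975. Il18 was nearest to Gm5431 and Ifi206 (0.995 and 0.994 over 19, 0.934 and 0.941 over 15 libraries). Osm was nearest to 1700037H04Rik (0.968) and Neu1 (0.964), which over 15 libraries were at 0.900 and 0.837. Tgfb1 was nearest to Cd209a (0.957) and Chmp4b (0.956), at 0.938 for both over 15 libraries. Cd209a, one of the dendritic cell markers, stood at 13.1 and 88.5 CPM in resting CCR1/2+ve and CCR2+ve and at 0.704 and 2.79 CPM in inflamed CCR1/2+ve and CCR2+ve monocytes.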

How the data were processed

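Bulk RNA-seq counts of sorted bone marrow cells, labelled as monocytes, were used. The deposited values are raw read counts per Ensembl gene (GRCm38), which the authors made by aligning paired-end reads with STAR 2.7.10a, as named in the submitters' processing notes, and counting them per gene. The counting strand is not stated. The table has 20 columns, of which 19 matched a sample label. The other 1 was not used. Groups were taken from sample titles. The genes and pathway lists were chosen with earlier results of these data known.

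Testing took the 18652 genes averaging 1 read or more across the 19 libraries. The test was the two-sided quasi-likelihood F test of edgeR 4.0.16 (R 4.3.3) after TMM scaling, with robust dispersions and Benjamini-Hochberg adjustment across the genes tested. Each fit held the 2 groups compared, and the interaction fit 15 libraries, without covariates. A call needed an adjusted p below 0.05 and a log2 fold change of 1 or more in size. The SE is the log2 fold change over the root of F. Levels are CPM with TMM factors over all 19 libraries, so that ratios of levels differ slightly from fitted folds. The floor was 3 reads over a group and covers counting error only. Depth was 22268658 to 30502009 reads. Exact permutation tests used SciPy 1.17.1. Of each pathway list, up to 3 called genes per direction with the smallest p were eligible to be named in a comparison. Positions and overlaps are from GENCODE M21 (GRCm38), promoters from RefSeq (GRCm38.p6). The fitting steps were tested on simulated data. Alternatives were DESeq2 1.42.0, its size factors, other filters, 1 fit of all libraries, GC offsets, a replicate block and leaving out each library. The resting groups' replicate numbers were taken to pair the libraries, because the deviations of same-numbered libraries from their group means correlated at 0.302 to 0.517 in all 4 pairs. The resting values given are nonetheless from fits without this pairing, unless the block is named. The labels give no source for a pairing, and in the other comparisons not every pair was above 0.1 (lowest -0.276). The libraries labelled inflamed CCR1 against inflamed CCR2+ve came close, with same-numbered pairs at 0.0973 to 0.196. Their differently numbered pairs reached at most 0.0801.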

Additional observations from a re-analysis of the deposited data

Results flagged for a closer look

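Among 34 groups of 4 libraries, 1 library stood far from the other 3 in 3 cases by Dixon's test, where chance flags about 1 in 20 groups. Il1a in resting CCR1/2+ve replicate 1 was at 0.329 CPM (10 reads), against 0 to 0.0391 CPM in the other 3, a gap of 0.851 of the group's range. Il18 in resting CCR2+ve replicate 1 was at 38.3 CPM, against 25.4 to 27.1 CPM in the other 3, a gap of 0.839 of the range. The log2 ratio of Il1rn to Il1b in resting CCR1/2+ve replicate 2 was 4.57, against 3.84 to 3.95 in the other 3, a gap of 0.849 of the range, and that library had 4 reads of Il1b.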

How the results depend on the processing

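The calls of Il1rn, Il18, Tnf and Tgfb1 in inflamed against resting CCR1/2+ve monocytes, of Tnf and Tgfb1 in inflamed against resting CCR2+ve monocytes, and of Il18, Osm and Vegfa in the libraries labelled inflamed CCR1 held under every alternative and with each library left out. In the resting comparison the number of genes called, 1 as reported, was 2 with no filter on low counts, 2 with all 19 libraries in one fit and 2 with no fold cutoff, 0 with edgeR's filterByExpr (Il18 at a log2 fold change of -0.98), and 0 to 1 with a library left out. Vegfa was the added call with no filter (adjusted p = 0.0465) and in the fit of all 19 (0.0174). In inflamed against resting CCR2+ve monocytes 4 genes passed with no fold cutoff. In inflamed against resting CCR1/2+ve monocytes Vegfa was called with no filter (adjusted p = 0.0489), in the fit of all 19 (0.0138) and with GC offsets (0.0418), and Il1b with GC offsets and the replicate block together (log2 1.71, adjusted p = 0.0101). Directions that reversed were of values that passed no test. With the replicate block and with GC offsets and the block, the log2 change of Il1a in inflamed against resting CCR1/2+ve monocytes was 1.13 and 1.39 and its interaction 0.23 and 0.28, and the difference of Il1rn between the inflamed populations was -0.0359 and -0.0912 (-0.0329 with GC offsets alone). The change of Osm in CCR1/2+ve monocytes was -0.0307 with both. With a library left out, the log2 value ran from -0.0954 to 0.798 for Il1b in inflamed against resting CCR2+ve, from -1.95 to 1.11 for Il1a and -0.0523 to 0.466 for Osm in inflamed against resting CCR1/2+ve, from -0.0587 to 0.129 for Il1rn and -0.401 to 0.0829 for Osm between the inflamed populations, from -0.671 to 0.0695 for Il1a in the libraries labelled inflamed CCR1 against inflamed CCR2+ve, and from -1.12 to 1.89 for Il1a and -0.32 to 0.18 for Osm in the interaction. The difference in the log2 ratio of Il1rn to Il1b, with 2 CPM added, was -0.24 at rest and -0.19 and -0.40 for the libraries labelled inflamed CCR1 against inflamed CCR2+ve and CCR1/2+ve, and with a library left out it ran from -0.0937 to 0.359 at rest and from -0.124 to 0.294 in the last. The cause of these shifts was not tested.

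Tgfb1 in the libraries labelled inflamed CCR1 against inflamed CCR2+ve was called without replicate 1 of the former or replicate 1, 2 or 3 of the latter (log2 -1.01 to -1.15), and Tnf against inflamed CCR1/2+ve without their replicate 2 (1.07, adjusted p = 0.0243). The adjusted p of Tnf there was also under 0.05, with no call, under 5 other alternatives (0.0287 to 0.0471). In comparisons where the replicate numbers were not taken to pair the libraries, the block ended 1 call, that of Il1b in the libraries labelled inflamed CCR1 against inflamed CCR1/2+ve (adjusted p = 0.104, and 0.10 with GC offsets), and together with GC offsets it added 1, that of Il1b in inflamed against resting CCR1/2+ve (above). It changed no other call of the 8 genes there. Over all genes, the called count between the inflamed populations was 27, against 107 by DESeq2, 53 with no filter, 53 in the fit of all 19, 80 with the block, 79 with the block and GC offsets, and 15 to 42 with a library left out. Genes past the interaction test numbered 74, against 534 by DESeq2, 113 with RLE size factors, 145 with no filter, 122 with filterByExpr, 222 with the block, 113 with GC offsets, 236 with both, and 0 to 253 with a library left out. Without resting CCR2+ve replicate 4 the resting count was 518 against 792. In inflamed against resting CCR1/2+ve monocytes 1708 genes were called higher and 3612 lower, against 2186 and 2889 with GC offsets and the block. Depth limits Il1a, Il1b and Vegfa, which had at most 72 reads in a library.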
